A study of Mus musculus with 17 samples.

Results

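Synaptic effector immediate early genes are the genes through which a burst of neuronal activity reaches the synapse, and they were followed here in the hippocampus of adult mice whose mothers differed in age and in rapamycin treatment. The list named 10 genes: Arc, Homer1, Bdnf, Nptx2, Sik1, Plk2, Rheb2, Gadd45b, Inhba2 and Vgf. Of these, 8 were found by symbol among the 24491 gene symbols of each file, and all 8 had enough counts to be tested. Rheb2 and Inhba2 were not among the symbols, so they have no value under those names. RefSeq gives Rheb2 as an older name of Rhebl1, a relative of Rheb, and gives no gene for Inhba2. Values for Rhebl1, Rheb and Inhba are given below beside the members and are not counted with them.

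The samples were 10 of the 17 libraries of the series, made from poly(A) RNA of the hippocampus of wild-type CD1 female offspring aged 40 to 44 weeks. Offspring came from young mothers (n = 4 libraries), from untreated aged mothers (n = 3) and from aged mothers injected intraperitoneally with rapamycin, an inhibitor of the mTOR kinase, at 2 mg/kg for 40 weeks from the age of 8 weeks (n = 3). The labels carry the drug as a treatment of these samples and name the mother as the treated animal; no dosing of offspring is described, and the exact age of their mothers is not given in the sources used here. The labels do not say that the libraries of a group came from separate animals or litters, so the p-values speak of the spread among libraries alone, part of which may be technical. Below, the groups are called young-mother, aged-mother and rapamycin-mother offspring, and young 1 to rapamycin 3 are single libraries.

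Activity opens calcium channels and NMDA receptors, and the calcium signal activates CREB, SRF and MEF2, which switch on a first wave of genes without new protein synthesis. Some of these encode transcription factors such as Fos, and others encode proteins that act at the synapse or on signalling itself. In the hippocampus such effectors adjust receptor number, spine structure and secreted signals during plasticity and memory. For the fastest of these genes RNA levels rise within minutes of stimulation and fall again within hours. Not every member need follow that course, and no time course was measured here.

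The promoter table from RefSeq (build GRCm38.p6) held starts for 4 of the 8 members, Bdnf (7 starts), Homer1 (2 starts), Plk2 and Gadd45b. Arc, Sik1, Nptx2 and Vgf had no entry. The sequences below are 250 bases before a start, and 232 bases for Gadd45b, where the printed stretch stops before the first base that GENCODE M21 annotates as transcribed. They are shown to set members whose mean levels differed less between the groups (Plk2, Homer1, Bdnf) beside Gadd45b and Nr4a1. The groups of Gadd45b separated without passing the test, and Homer1 was lower in every rapamycin-mother than in every young-mother library. Nr4a1 was the gene whose pattern over the libraries was most like that of Arc. Capitals mark the CREB-binding core TGACG on either strand (printed as TGACG or CGTCA), and in Gadd45b the TATA box TATAAA.
Gadd45b (chr10:80929841-80930072, plus strand): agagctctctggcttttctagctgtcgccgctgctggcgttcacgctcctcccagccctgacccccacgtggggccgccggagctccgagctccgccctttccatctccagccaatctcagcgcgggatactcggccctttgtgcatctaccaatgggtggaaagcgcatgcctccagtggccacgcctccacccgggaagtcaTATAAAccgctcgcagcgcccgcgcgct
Plk2 (chr13:110394794-110395043, plus strand): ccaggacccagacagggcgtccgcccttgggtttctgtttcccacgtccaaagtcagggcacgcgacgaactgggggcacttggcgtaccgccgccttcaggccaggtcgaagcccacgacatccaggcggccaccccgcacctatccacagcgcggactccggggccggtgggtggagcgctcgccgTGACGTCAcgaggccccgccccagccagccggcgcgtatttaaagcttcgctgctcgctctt
Homer1 (chr13:93303507-93303756, plus strand): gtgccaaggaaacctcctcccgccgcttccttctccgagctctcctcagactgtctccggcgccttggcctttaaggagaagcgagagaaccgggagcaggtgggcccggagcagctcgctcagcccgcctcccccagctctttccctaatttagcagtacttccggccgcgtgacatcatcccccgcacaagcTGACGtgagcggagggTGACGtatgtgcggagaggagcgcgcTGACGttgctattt
Bdnf (chr2:109692186-109692435, plus strand): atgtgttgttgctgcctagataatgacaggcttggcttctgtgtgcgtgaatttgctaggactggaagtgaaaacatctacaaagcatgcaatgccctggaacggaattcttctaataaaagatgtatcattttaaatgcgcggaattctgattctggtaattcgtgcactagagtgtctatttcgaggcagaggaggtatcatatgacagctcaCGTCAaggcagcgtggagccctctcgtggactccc
Nr4a1 (chr15:101266596-101266845, plus strand): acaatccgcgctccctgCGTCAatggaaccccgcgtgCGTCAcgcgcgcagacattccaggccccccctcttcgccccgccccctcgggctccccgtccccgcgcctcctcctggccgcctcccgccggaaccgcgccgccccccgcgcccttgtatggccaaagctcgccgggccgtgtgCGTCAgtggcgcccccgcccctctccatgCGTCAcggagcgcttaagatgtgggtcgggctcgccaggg
Plk2 held the full palindrome TGACGTCA, which begins 62 bases before its start and contains both overlapping copies of the core. Homer1 held 3 copies, beginning 56, 40 and 14 bases before the start, and its other start held 0. In Bdnf only 1 of 7 starts held a copy, 35 bases before the start, and that one is printed. Nr4a1 held 4 copies and Gadd45b 0. Among all 32851 promoter windows of the same table, taken as 250 bases before the start, 17.8% held at least 1 core, 0.688% held at least 3, 1.55% held TGACGTCA and 12.4% held TATAAA on either strand. These are matches of letters only.

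Depth was even across the libraries, from 16434398 to 20220617 counts in genes, with 14322 to 14741 genes at 10 counts or more. Levels are given as CPM (counts scaled to a common library total with the trimmed mean of M values, TMM). Members averaged between 276 counts (Sik1) and 4456 counts (Plk2) per library, and the lowest single value was 102 counts for Sik1 in young 4. Counting error is relatively largest for Sik1 and Gadd45b (335 counts on average). It was not set against the spread between libraries for each member. Markers of hippocampal cells were present in every group: the CA1 markers Wfs1, Fibcd1, Mpped1 and Pou3f1 summed to 448 to 828 CPM, with none at 0. Oligodendrocyte markers ranged from 2502 to 9422 CPM, with young 2, aged 2 and rapamycin 2 the highest (9312, 9422 and 9205 CPM) and aged 1 at 7319 CPM and the others between 2502 and 4494 CPM. In bulk tissue, fewer cells of a type and less RNA per cell cannot be told apart.

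Per kilobase of annotated exon, the members spanned a wide range of levels. The length was the union of the exons of all annotated transcripts. It was 11976 bases for Homer1 (12 transcripts), 6217 for Bdnf (11) and 2536 for Nptx2 (1). Which transcripts were expressed was not measured, so the order may depend on this choice of length. In young-mother offspring the order of the mean CPM per kilobase was Vgf (68.9 ± 12.3), Plk2 (54.9 ± 10.8), Arc (33.0 ± 7.56), Nptx2 (13.1 ± 5.04), Homer1 (10.0 ± 0.616), Bdnf (9.90 ± 1.50), Gadd45b (7.93 ± 2.73) and Sik1 (1.45 ± 0.294; SD, n = 4). Vgf and Plk2 overlapped, as did each neighbouring pair from Nptx2 down to Gadd45b, and the highest Arc library (43.6) lay above the lowest Plk2 library (39.4). Arc stood apart from Nptx2, and Sik1 stood apart as the lowest. In aged-mother offspring Arc came first, at 102 ± 26.2 CPM per kilobase (SD, n = 3), with its lowest library (84.6) just under the highest of Vgf (84.9), and Gadd45b moved from the seventh to the fourth place at 16.2 ± 1.26. In rapamycin-mother offspring Arc was again first (90.8 ± 14.6 CPM per kilobase), its lowest library just under the highest of Vgf.

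**Figure D1:**
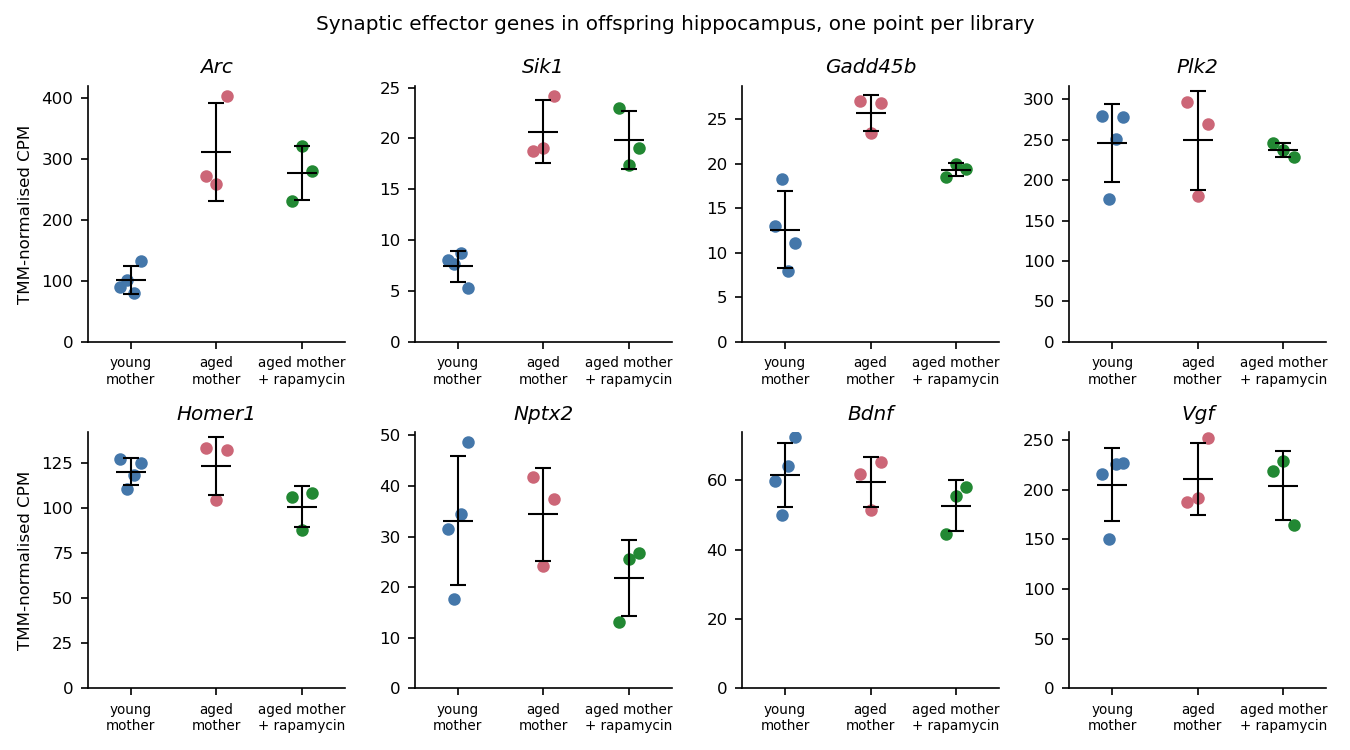
TMM-normalised CPM (vertical axis, from 0) of the 8 members in each hippocampus library, by mother's group; points are libraries, bars are mean ± SD (n = 4, 3 and 3). For Arc, Sik1 and Gadd45b every library of both aged-mother groups lies above all 4 young-mother libraries, while the other 5 genes overlap except Homer1, whose rapamycin-mother libraries lie below the young-mother ones.

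The first comparison asked how offspring of aged mothers differed from offspring of young mothers. Arc and Sik1 were about 3-fold higher in hippocampus of aged-mother offspring and passed the test, and Gadd45b was about 2-fold higher without passing. Homer1, Bdnf, Nptx2, Plk2 and Vgf had folds between 0.966 and 1.04. So 2 of 8 members were called at an edgeR adjusted p under 0.05, both higher, where 0.0471% of all 14877 genes tested (7 genes) were called higher and 0 lower. In 3 of 8 members the groups did not overlap, all higher, against 2.92% of all genes higher, 2.52% lower and 5.44% in either direction. The median log2 fold change of the members was 0.05, beside -0.01 over all genes.

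Arc encodes a protein that removes AMPA receptors from synapses and forms capsid-like particles that carry RNA. Its gene lies on chromosome 15 from 74669083 to 74672570 on the minus strand of GRCm38. Arc stood at 90.0, 101, 80.0 and 133 CPM in young-mother offspring and at 271, 259 and 404 CPM in aged-mother offspring. Each aged-mother library was above each young-mother library, with aged 3 the highest of all 10. The means were 101 ± 23.1 (SD, n = 4) and 311 ± 80.2 CPM (SD, n = 3), which gave a log2 difference of 1.62 ± 0.21 (SE, edgeR adjusted p = 0.0279), or 3.08-fold with a 95% interval of 2.22 to 4.27.

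Sik1 encodes a salt-inducible kinase that phosphorylates the CREB coactivators of the CRTC family and class IIa histone deacetylases, and so feeds back on activity-driven transcription. It lies on chromosome 17 from 31844250 to 31855804 on the minus strand. Levels were 8.04, 7.67, 8.75 and 5.27 CPM in young-mother and 18.7, 19.1 and 24.2 CPM in aged-mother offspring. The groups were well apart, and aged 3 was again the highest. The mean rose from 7.43 ± 1.51 (SD, n = 4) to 20.7 ± 3.06 CPM (SD, n = 3), with a log2 difference of 1.48 ± 0.19 (SE, edgeR adjusted p = 0.0279) and a fold of 2.78 (2.07 to 3.73).

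Gadd45b encodes a stress-induced adaptor linked to p38 signalling and to activity-induced DNA demethylation at plasticity genes, and lies on chromosome 10 from 80930073 to 80932204. It stood at 13.0, 18.3, 8.00 and 11.1 CPM in young-mother and at 27.0, 23.4 and 26.8 CPM in aged-mother offspring. All 3 aged-mother libraries were higher, and young 2 was the highest of the young-mother ones. Gadd45b had a log2 fold change of 1.03 ± 0.23 (SE), 2.04-fold with an interval of 1.45 to 2.89, and did not pass over all genes (edgeR adjusted p = 0.437, unadjusted p = 0.000885). It passed with DESeq2 (adjusted p = 0.0146) and in edgeR without young 2 (adjusted p = 0.0437).

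Both calls depended on single libraries. Arc and Sik1 lost the call without young 1, young 3, aged 1, aged 2, aged 3, rapamycin 1 or rapamycin 3, with edgeR adjusted p from 0.0535 to 0.175, and in the fit of only these groups (edgeR adjusted p = 0.0793 for each). Their log2 fold changes over the leave-one-out fits stayed between 1.39 and 1.78 for Arc and between 1.34 and 1.56 for Sik1. Without aged 3, the highest library for both, they were 1.39 and 1.35.

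The members that did not differ cover scaffold, kinase and secreted roles. Homer1 encodes a scaffold that ties group I metabotropic glutamate receptors to Shank and to inositol trisphosphate receptors; its short activity-induced form, Homer1a, uncouples these links. The files count per gene, so Homer1a cannot be told apart from the long forms (GENCODE M21 lists 12 transcripts of Homer1, on chromosome 13 from 93299635 to 93405129, with Gm47075 and Gm47088 inside it on the same strand). Homer1 stood at 127, 110, 118 and 125 CPM in young-mother and at 133, 105 and 132 CPM in aged-mother offspring, a fold of 1.03 (0.841 to 1.25). Plk2 encodes a polo-like kinase that weakens overactive synapses through the spine protein SPAR, and lies on chromosome 13 from 110395046 to 110400844. Plk2 stood at 280, 177, 251 and 278 CPM against 297, 181 and 270 CPM, and in both groups 1 library lay well below the others. Its fold was 1.01 (0.746 to 1.37).

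Among the secreted products, Bdnf encodes brain-derived neurotrophic factor, the ligand of the receptor TrkB. Bdnf stood at 59.8, 50.0, 64.0 and 72.4 CPM in young-mother and 61.7, 51.3 and 65.3 CPM in aged-mother offspring, a fold of 0.966 (0.761 to 1.23). GENCODE M21 lists 11 Bdnf transcripts, on chromosome 2 from 109674700 to 109727007, and 1 gene on the opposite strand, Gm45346. The strand setting of the counting was not given, so reads of these genes may not be told apart where they overlap. Nptx2, a neuronal pentraxin released at synapses that clusters AMPA receptors (chromosome 5, 144545902 to 144557478), varied most within the groups. It stood at 31.6, 17.6, 34.5 and 48.8 CPM against 41.8, 24.1 and 37.4 CPM, and its fold of 1.04 has an interval of 0.617 to 1.75, the widest of the members on the log2 scale. Vgf, a precursor of secreted neuropeptides induced by neurotrophins (chromosome 5, 137026392 to 137033351), stood at 216, 150, 226 and 227 CPM against 188, 192 and 252 CPM, a fold of 1.03 (0.773 to 1.37). The intervals of Homer1, Plk2, Bdnf, Nptx2 and Vgf all end below 2.07, the lower bound for Sik1, and all include 1 with room for smaller changes in either direction.

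**Figure D2:**
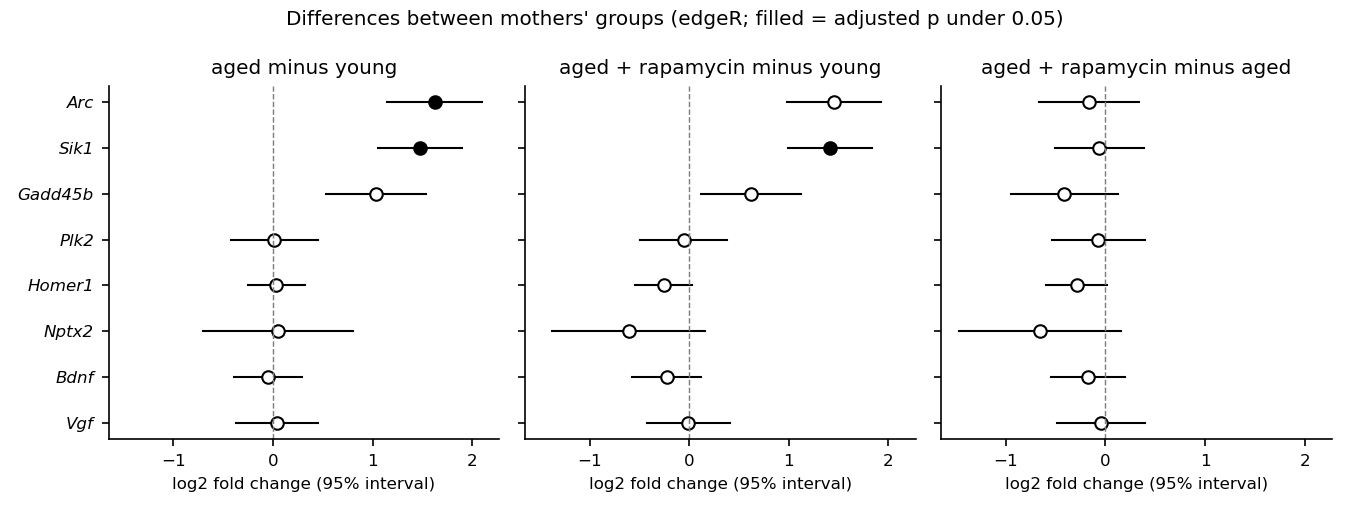
Log2 fold change (horizontal axis) of each member with its 95% interval in the 3 comparisons; filled points passed at an edgeR adjusted p under 0.05. Arc and Sik1 pass for aged minus young, Sik1 for rapamycin minus young, and no gene for rapamycin minus aged.

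The second comparison set rapamycin-mother offspring against young-mother offspring, and it shares the young-mother libraries with the first. Sik1 was called higher, and Arc was 2.75-fold higher with an adjusted p just over the threshold. In all 1 of 8 members was called higher and 0 lower, where 0.0538% of all genes (8 of 14877) were called higher. The groups did not overlap in 4 of 8 members, 3 higher (2.93% of all genes) and 1 lower (2.10% of all genes, and 5.03% in either direction). The median log2 fold change of the members was -0.03, beside 0.01 over all genes.

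Sik1 stood at 23.0, 17.4 and 19.0 CPM in rapamycin-mother offspring, each above the young-mother maximum of 8.75 CPM. The mean of 19.8 ± 2.86 CPM (SD, n = 3) gave a log2 fold change of 1.41 ± 0.19 (SE, edgeR adjusted p = 0.0356), or 2.67-fold (1.99 to 3.57). Arc stood at 232, 321 and 280 CPM, again with no overlap. Its mean of 277 ± 44.5 CPM (SD, n = 3) gave a log2 fold change of 1.46 ± 0.21 (SE, edgeR adjusted p = 0.0509) and a fold of 2.75 (1.98 to 3.81). Gadd45b, at 18.5, 20.0 and 19.4 CPM, was above all young-mother libraries, by a narrow margin over young 2 at 18.3 CPM. Its fold was 1.53 (1.08 to 2.17), with an edgeR adjusted p of 0.999.

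These calls also turned on the choice of samples and settings. Sik1 lost its call without young 1, young 2, young 3, young 4, aged 1, aged 2, rapamycin 1 or rapamycin 3 (edgeR adjusted p from 0.0548 to 0.209) and in the fit of only these groups (edgeR adjusted p = 0.157), while its log2 fold change stayed between 1.28 and 1.49 over the leave-one-out fits. Arc was called in edgeR without young 4 (adjusted p = 0.0450) or without aged 3 (adjusted p = 0.0351), and also in DESeq2 (adjusted p = 5.57e-07).

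The other 5 members lay at or below their young-mother level. Homer1 stood at 106, 87.7 and 108 CPM, all under the lowest young-mother library (110 CPM), a fold of 0.839 (0.687 to 1.02; edgeR adjusted p = 0.999). Nptx2 stood at 13.1, 25.6 and 26.7 CPM, a fold of 0.658 (0.386 to 1.12), with rapamycin 1 the lowest of all 10 libraries. Bdnf stood at 44.4, 55.5 and 58.2 CPM, a fold of 0.856 (0.674 to 1.09), and rapamycin 1 was again the lowest. Plk2 stood close together in this group, at 247, 237 and 228 CPM, a fold of 0.963 (0.710 to 1.31). Vgf stood at 219, 229 and 164 CPM, a fold of 0.995 (0.748 to 1.33).

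The third comparison asked what maternal rapamycin changed against untreated aged mothers. No member passed: 0 of 8 were called in edgeR, 0 had an unadjusted p under 0.05 and 0 were called by DESeq2. Among all 14877 genes edgeR called 0 (0%) and DESeq2 called 12. In edgeR 673 had an unadjusted p under 0.05, fewer than the 744 expected if no gene differed. Both comparisons with young-mother offspring also fell below 744, at 522 for aged-mother and 540 for rapamycin-mother offspring. For rapamycin-mother minus aged-mother offspring all 8 point estimates of the members lay below 0. Their median log2 fold change was -0.17 beside 0.02 over all genes, and the members share the same 6 libraries.

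Arc in rapamycin-mother offspring was at 0.892 of the aged-mother level (0.628 to 1.27) and Sik1 at 0.958 (0.703 to 1.31), and the libraries of the groups overlapped for both. Without aged 3 both estimates moved just above 0 on the log2 scale, to 0.07 each, and without rapamycin 2 that of Sik1 was 0.01. Gadd45b was the only member whose groups did not overlap, with 18.5 to 20.0 CPM against 23.4 to 27.0 CPM, where 4.88% of all genes separated in this direction, 5.01% in the other and 9.89% in either. Its fold was 0.751 (0.518 to 1.09; edgeR adjusted p = 0.796). The lowest estimate was that of Nptx2, a fold of 0.633 (0.361 to 1.11), followed by Gadd45b, Homer1 at 0.818 (0.662 to 1.01), Bdnf at 0.886 (0.687 to 1.14), Plk2 at 0.953 (0.688 to 1.32) and Vgf at 0.968 (0.713 to 1.31).

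**Figure D3:**
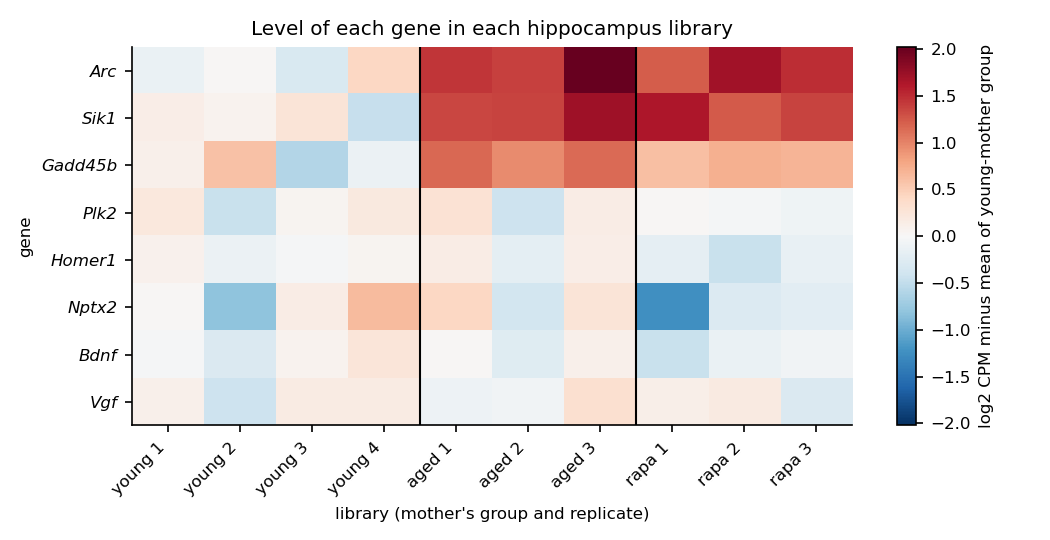
Log2 CPM of each member (rows) in each library (columns) minus the mean of the 4 young-mother libraries; red is higher and blue lower. Arc, Sik1 and Gadd45b are red in all 6 libraries from aged mothers, and Nptx2 reaches its lowest values in rapamycin 1 (-1.24) and young 2 (-0.82).

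Bdnf and Nptx2 followed each other most closely of the 28 pairs of members, with Pearson r = 0.96 and Spearman rho = 0.96 on log2 CPM over 10 libraries, and r = 0.98 after each group's mean was taken out. Both were highest in young 4 and lowest in rapamycin 1, and in each group their lowest library was the same one. Arc correlated with Sik1 at r = 0.86 and with Gadd45b at r = 0.83. Within groups those values were -0.44 and 0.29. Arc and Bdnf, by contrast, had r = -0.12 over all libraries and 0.58 within groups. These values describe 10 libraries that share tissue and scaling, and carry no test.

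For each member 11437 genes whose mean log2 CPM reached 2 were searched, and predicted gene models (Gm or Rik symbols) were passed over. Among these, the genes most like Arc were Nr4a1 (r = 0.99), Egr4 (r = 0.97) and Junb (r = 0.97), all activity-induced transcription factors. Nr4a1 stood at 42.1 to 57.9 CPM in young-mother, 98.3 to 172 CPM in aged-mother and 102 to 115 CPM in rapamycin-mother offspring, and within groups its r with Arc was 0.89. The genes most like Sik1 were Fosb (r = 0.95), the antiproliferative gene Tob2 (0.94) and Fos (0.93), but within groups these fell to 0.36, 0.53 and 0.18. Gadd45b was closest to the transcription cofactor gene Sertad1 (0.96), the aminotransferase Gpt2 (0.94) and Zfp503 (0.94). Homer1 was closest to the orphan receptor Gpr22 (0.97), Tars (0.94) and Zfp719 (0.92). Bdnf had Nptx2 as its nearest gene and then Fbxo27 (0.92) and Fndc5 (0.92), and Nptx2 had Bdnf and then Sept6 (0.94) and Rabggta (0.94). Plk2 was closest to Tlk1 (0.96), Usp25 (0.93) and Tbc1d1 (0.89), and Vgf to Tmem132d (0.92), the calcium-dependent kinase gene Camk1g (0.89) and Map6 (0.89).

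The sum of the CA1 markers was higher where Plk2, Nptx2, Vgf and Bdnf were higher. Over the 10 libraries its r on the log2 scale was 0.76 with Plk2, 0.73 with Nptx2, 0.73 with Vgf, 0.69 with Bdnf and 0.45 with Homer1, and 0.06 with Arc, -0.18 with Sik1 and -0.08 with Gadd45b. The CA1 sum ranged from 479 to 828 CPM in young-mother, 532 to 799 CPM in aged-mother and 448 to 739 CPM in rapamycin-mother offspring. All 4 CA1 markers had estimates below 0 for rapamycin-mother minus aged-mother (median -0.47) and minus young-mother offspring (median -0.32), with 0 called. For aged-mother minus young-mother offspring 3 were above 0 and 1 below (median 0.10). The part of CA1 content in the levels of these members was not tested. Other marker sums of the 12 computed also varied with members over these libraries. Gadd45b had r = 0.63 with the thalamus markers, 0.58 with those of immature neurons, 0.53 with microglia and -0.56 with endothelium. Calb2 is in both the thalamus and the immature-neuron list, so these sums are not separate. Vgf had r = -0.75 with the choroid plexus markers and -0.59 with immature neurons. Homer1 had -0.63 with those of microglia and -0.56 with excitatory neurons. Plk2 had -0.59 with oligodendrocytes, -0.55 with microglia and -0.51 with interneurons. For Arc and Sik1 the r farthest from 0 was with the thalamus markers, 0.39 and 0.45. The 5 thalamus markers all had estimates above 0 for aged-mother minus young-mother offspring (median 0.22, 0 called), and their sum ranged from 105 to 124 CPM in aged-mother, 78.4 to 108 CPM in young-mother and 84.1 to 112 CPM in rapamycin-mother offspring. The part of these cells in the members' levels was not tested. With the mean level of 76 cytosolic ribosomal protein genes, which ranged from -0.90 to 0.66 log2 units, the members had r from -0.33 (Plk2) to 0.46 (Gadd45b). That level was 0.03 to 0.48 in aged-mother, -0.52 to 0.66 in young-mother and -0.90 to 0.62 in rapamycin-mother libraries. With it as a covariate Arc and Sik1 were called in both comparisons with young-mother offspring. For Gadd45b the log2 fold change of rapamycin-mother minus aged-mother offspring was -0.22 with the covariate and -0.41 without.

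**Figure D4:**
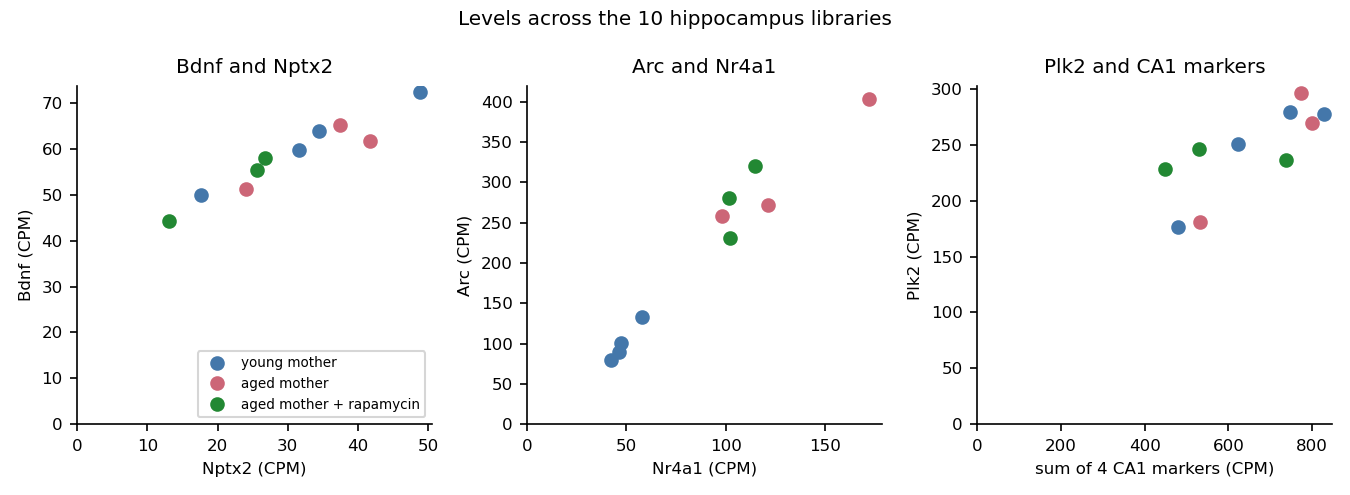
Levels in CPM over the 10 hippocampus libraries (points, coloured by mother's group): Bdnf against Nptx2, Arc against Nr4a1, and Plk2 against the sum of 4 CA1 markers. Bdnf and Nptx2 vary together with the groups intermixed (r = 0.96), whereas for Arc and Nr4a1 all young-mother libraries lie below those of both aged-mother groups.

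Transcription factors of the same early response were higher in offspring of both aged-mother groups than in young-mother offspring for part of the list. Of 24 listed, all tested, 5 were called higher in aged-mother than in young-mother offspring (Fos, Fosb, Egr2, Egr4 and Nr4a1) and 0 lower. All 24 estimates lay above 0, with a median log2 fold change of 0.88. Over all genes 0.0471% were called higher and 47.9% of estimates lay above 0. Fos stood at 4.53 to 7.24 CPM in young-mother and at 27.4 to 61.5 CPM in aged-mother offspring. In rapamycin-mother offspring 5 were called higher against young-mother offspring (Fos, Fosb, Egr2, Btg2 and Ier2), with a median of 0.80. In that comparison 0.0538% of all genes were called higher. Against aged-mother offspring 0 were called, with 9 estimates above 0 and 15 below (median -0.24). Fos stood at 45.3 to 66.1 CPM in rapamycin-mother offspring. Btg2, an antiproliferative early gene, had a log2 fold change of 1.92 ± 0.16 (SE, edgeR adjusted p = 0.00154) for rapamycin-mother minus young-mother offspring. For rapamycin-mother minus aged-mother offspring Btg2 had 1.18 ± 0.18 (SE, edgeR adjusted p = 0.531), with no overlap between the groups. Upward separation of these groups was seen in 5.01% of all genes. The list was chosen with earlier results on these libraries known.

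Of the other induced effectors listed, 39 were tested. Of these, 0 were called between aged-mother and young-mother offspring (median 0.19), and 2 were called higher in rapamycin-mother than in young-mother offspring. These were the MAP kinase phosphatase Dusp1, with a log2 fold change of 2.13 ± 0.23 (SE, edgeR adjusted p = 0.00831), and the matricellular gene Cyr61, with 2.28 ± 0.27 (SE, edgeR adjusted p = 0.0153). Over all genes 0.0471% were called higher in aged-mother and 0.0538% in rapamycin-mother than in young-mother offspring. Tiparp, Arl4d, Dusp1 and Cyr61 had aged-mother libraries that lay above every young-mother one without passing, with log2 fold changes of 0.71, 1.47, 1.22 and 1.31. Such separation was seen in 2.92% of all genes. Against aged-mother offspring all rapamycin-mother libraries were higher for Dusp1 and Cyr61 (log2 fold changes 0.92 and 0.97). For Tiparp and Arl4d they were all lower (-0.36 and -0.76). None of these passed (edgeR adjusted p = 0.796 for each). Over all genes 5.01% separated upward and 4.88% downward between these groups. Rheb, the GTPase that activates mTORC1, stood at 165 ± 47.7, 177 ± 12.4 and 134 ± 32.4 CPM in young-mother (SD, n = 4), aged-mother and rapamycin-mother offspring (SD, n = 3 each). Rhebl1 stood at 3.18 ± 0.478, 3.26 ± 0.869 and 3.51 ± 0.508 CPM in the same order. Inhba, the activin A subunit gene, stood at 3.50 ± 1.45, 2.65 ± 0.0884 and 1.92 ± 0.877 CPM, and had 16 to 81 counts per library. Neither Rheb nor Inhba passed in any comparison (edgeR adjusted p from 0.796 to 0.999).

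Partners of the member proteins and the pathways above and below them gave no call in any of the 3 comparisons. For receptors and partners, such as Ntrk2, Grm5, the Shank genes, AMPA receptor subunits and Nptxr, 0 of 31 tested were called, with medians of -0.14 (aged-mother minus young-mother), 0.07 (rapamycin-mother minus young-mother) and 0.21 (rapamycin-mother minus aged-mother). Within that list Shank1, a scaffold that binds Homer, was higher in all rapamycin-mother than in all aged-mother libraries, with a log2 fold change of 0.54 ± 0.23 (SE, edgeR adjusted p = 0.796). In upstream calcium, CREB and SIK-CRTC signalling 0 of 35 were called (medians -0.03, 0.10 and 0.09 in the same order). The CREB coactivator Crtc1, a substrate of SIK kinases, was higher in every rapamycin-mother library than in every library of either other group. Its log2 fold changes were 0.36 against young-mother and 0.39 against aged-mother offspring, with no call (edgeR adjusted p = 0.999 and 0.796). Over all genes, 2.93% separated upward from young-mother and 5.01%, Shank1 among them, from aged-mother offspring. In the Rheb-mTOR pathway 0 of 18 were called (medians 0.06, 0.15 and 0.18), and in the list of GADD45 relatives and DNA demethylation 0 of 10 (medians -0.10, 0.18 and 0.25). Gadd45g, a paralogue of Gadd45b, had a log2 fold change of 0.86 ± 0.21 (SE) between aged-mother and young-mother offspring and no call (edgeR adjusted p = 0.600). Its groups did not overlap, where 2.92% of all genes separated in this direction.

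**Figure D5:**
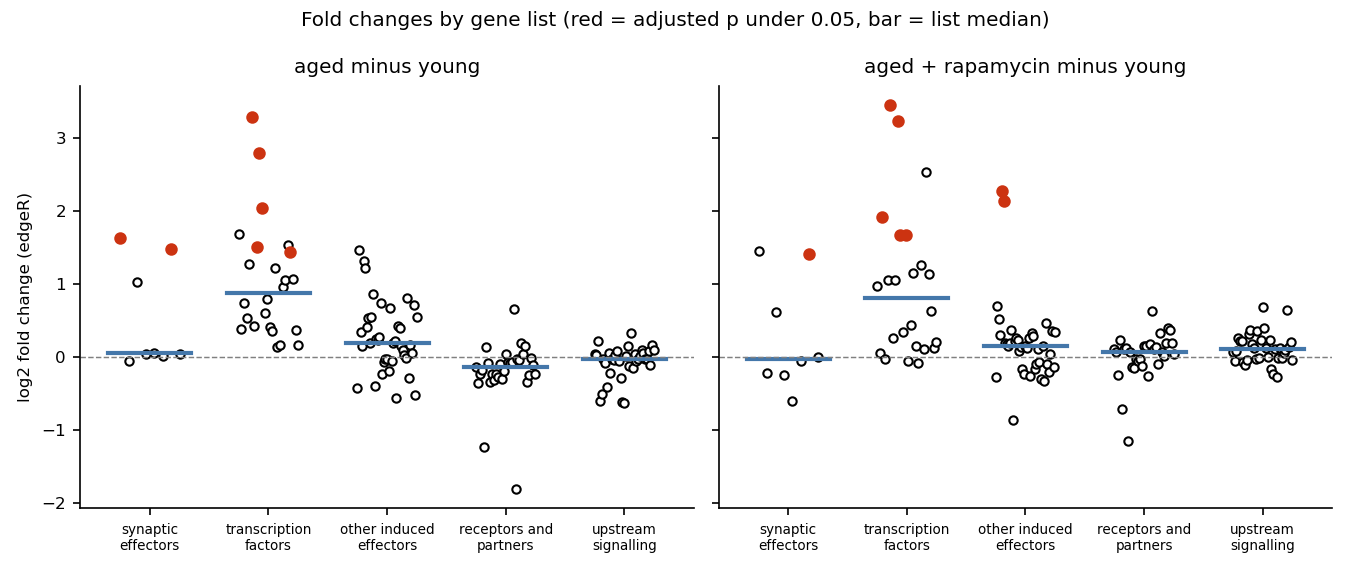
Log2 fold change (vertical axis) of each gene in 5 lists for aged minus young and for rapamycin minus young; red points passed at an edgeR adjusted p under 0.05 and blue bars are list medians. Medians of the transcription factors (0.88 and 0.80) lie above those of the synaptic effectors (0.05 and -0.03).

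In the list of glucocorticoid and clock genes 0 of 22 were called in any comparison, with a median of 0.24 for aged-mother minus young-mother offspring. The 4 genes of the list with the smallest unadjusted p over the 3 comparisons, Tsc22d3 (1.49 ± 0.22, SE, edgeR adjusted p = 0.0618), Pdk4 (1.40), Sgk1 (1.11) and the clock gene Per1 (0.67), had all aged-mother libraries above all young-mother ones. For rapamycin-mother minus young-mother offspring their log2 fold changes were 0.74, 0.37, 0.38 and 0.26, with no overlap for Tsc22d3 and overlap for the other 3. The genes were picked with these libraries, so their values are a description. Over all genes, 2.92% had all aged-mother libraries above all young-mother ones, and 2.93% had all rapamycin-mother libraries above them. Of 10 heat shock genes 0 were called (medians 0.04 for aged-mother minus young-mother and -0.10 for rapamycin-mother minus young-mother offspring), and Hspa1a had all aged-mother libraries above all young-mother ones (log2 fold change 0.81, edgeR adjusted p = 0.130), with 0.12 and overlap for rapamycin-mother offspring. Dnajb1, a heat shock co-chaperone gene, had the libraries of both aged-mother groups above all young-mother ones (log2 fold changes 0.61 and 0.43, edgeR adjusted p = 0.696 and 0.999). Endothelial markers summed to 61.3 to 73.1 CPM in aged-mother, 42.9 to 157 CPM in young-mother and 61.7 to 183 CPM in rapamycin-mother offspring, with 0 of 5 called and none at 0. All 5 had estimates below 0 for aged-mother minus young-mother offspring (median -0.98). For rapamycin-mother minus aged-mother offspring all 5 were above 0 (median 1.06), and for rapamycin-mother minus young-mother offspring 4 were above 0 and 1 below (median 0.22). The part of these genes in the levels of Arc and Sik1 was not tested.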

How the data were processed

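RNA-seq of 10 hippocampus libraries was analysed, and the 7 oocyte libraries of the series were not used here. The deposited files hold raw counts of reads per gene symbol, made by the authors with STAR and HTSeq on build mm10, per the submitters' processing notes; versions, annotation and strandedness were not given in the sources used here. The 5 summary rows that name no gene were left out, among them reads outside genes (11.6% to 16.0% of each total). In R 4.3.3, edgeR 4.0.16 was used on these counts with filterByExpr, TMM scaling and the quasi-likelihood F-test over all 3 groups, with Benjamini-Hochberg adjustment over 14877 genes and a threshold of 0.05. The SE is the log2 fold change divided by the square root of F, and 95% intervals use the fitted degrees of freedom. The code was tested on simulated data. No pair of libraries of a group agreed within counting noise (lowest ratio of chi-square to degrees of freedom 12.3). The ratio was 68.8 to 109 for pairs with young 2 and 96.0 to 131 for pairs with rapamycin 2. All other pairs within a group lay between 12.3 and 26.4.

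Coordinates and exon lengths come from GENCODE M21 (GRCm38, the assembly of mm10), which may differ from the authors' annotation. Members, gene lists and tests were chosen with earlier results on these data known. The text names all members found, up to 4 genes per list with the smallest unadjusted p, Rheb and Inhba. For each member it also names the 3 genes with the highest r (log2 CPM, prior count 2, predicted gene models passed over). Rhebl1, Ier2 and list genes given only as examples of a list were named outside these rules, after values were seen. Alternatives were other size factors, no filter or a stricter one, a robust fit, only 2 groups, a replicate block, DESeq2 1.42.0, a ribosomal covariate and leaving out each library.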

Additional observations from a re-analysis of the deposited data

Results flagged for a closer look

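Vgf stood at 150 CPM in young 2, far below the other young-mother libraries, which lay between 216 and 227 CPM. The gap to the nearest library was 0.854 of the range of the group. Chance marks about 1 in 20 groups in this way, and 8 genes were looked at. Young 2 also had the lowest Plk2 of all 10 libraries (177 CPM), and in it the oligodendrocyte markers summed to 9312 CPM, against 2859 to 3736 CPM in the other young-mother libraries. Without young 2 the log2 fold change of Vgf in aged-mother against young-mother offspring was -0.07 in place of 0.04, with no call either way.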

How the results depend on the processing

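Members called in aged-mother against young-mother offspring numbered 2, and 0 with only these groups in the fit; leaving out each library gave 0 to 3. In rapamycin-mother against young-mother offspring 1 was called, and 2 with no filter on low counts, with a filter of 10 CPM in 3 libraries, with DESeq2 and with the ribosomal covariate, 0 with only these groups in the fit, and 0 to 2 over the leave-one-out fits. The number was 0 in rapamycin-mother against aged-mother offspring under all 18 alternatives. Correlations of deviations ran from -0.29 to 0.75 for the 9 same-numbered pairs of libraries and from -0.72 to 0.68 for the 24 other pairs. These ranges overlap, and no label says what a replicate number shares, so whether the numbers pair the libraries cannot be told. With the numbers as a replicate block 2 members were called in the first comparison. In the second 0 were called, and Sik1 had 1.28 (edgeR adjusted p = 0.0756). The block also turned the sign of estimates near 0, Bdnf in the first comparison (0.038) and Plk2 and Vgf in the second (0.044 and 0.067). Over all genes edgeR called 7, 0 and 8 in the comparisons aged-mother against young-mother, rapamycin-mother against aged-mother and rapamycin-mother against young-mother, and DESeq2 52, 12 and 36. The cause of these differences was not tested.

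Signs also turned when 1 library was left out, for members near 0 and without a call. For aged-mother against young-mother the log2 fold changes ranged from -0.023 to 0.14 for Homer1, -0.13 to 0.045 for Bdnf, -0.14 to 0.30 for Nptx2, -0.13 to 0.20 for Plk2 and -0.11 to 0.12 for Vgf. For rapamycin-mother against aged-mother they ranged from -0.30 to 0.066 for Arc, -0.19 to 0.067 for Sik1, -0.26 to 0.075 for Plk2 and -0.15 to 0.10 for Vgf. For rapamycin-mother against young-mother they ranged from -0.19 to 0.0082 for Plk2 and -0.14 to 0.11 for Vgf. With 3 or 4 libraries a group, the intervals of these members leave room for changes of either sign.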
